A study of Danio rerio with 8 samples.

Results

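This comparison set the liver transcriptome of male zebrafish kept for 96 h in surface water from site H1 of the Hun River against that of fish kept in control water. It used 1 array a side of the 8 arrays analysed here. The paper describes repeat arrays for all samples but D, which were not analysed here. A probe entered when its spot was well above background on both arrays and carried no mark as a non-uniform spot or population outlier on either. By this rule 25246 of 43603 probes were measured. Of these, 16992 probes carried a gene symbol and represented 9694 of the 13443 named genes on the array. The values are normalised intensities, meaning the scanner's processed signal after quantile normalization over the 8 arrays, and a difference is log2 of H1 minus log2 of the control, averaged over a gene's measured probes.

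The study exposed adult wild-type fish to water from 7 sites, with H1 to H5 on the river and D and X on tributaries, to compare liver transcript profiles along the river. Each array carried total RNA pooled from the livers of 5 males aged 3 months, and the H1 and control fish were kept alike in static tanks for 96 h. The H1 water was a grab sample passed through a glass fiber filter before use, and the control fish received tap water that had been aerated and filtered over activated carbon. The study's text treats H1 as the background site of the river. Because each side is 1 pool on 1 array, fish, tank, pool and array cannot be told apart from the water, and no p-value can be given.

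The liver makes most plasma proteins and is the main organ of detoxification, and in fish as in mammals it also answers infection and injury signals. Bacterial products and cytokines act through Toll-like and interleukin receptors on the transcription factor NF-kB, which switches on cytokines, chemokines and its own inhibitors. Unfolded proteins, starvation for amino acids and DNA damage act through other factors (heat shock factor, Atf4, p53) that induce chaperones, amino acid genes and growth arrest genes. In zebrafish the pancreas lies scattered along the intestine close to the liver, so a dissected liver can hold cells of both.

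The share of spots whose signal passed the scanner software's background limit ranged from 56.5% to 70.8% over the 8 arrays, with 62.9% on the control array and 62.1% on the H1 array. The control and H1 arrays lay on the same slide together with H2 and D. The only errors the files give lie within an array. The scanner software's error for a spot came to 10.4% of the signal at the median, or 0.21 for a log2 difference between both arrays, and the SD between different probes of 1 gene was 0.15 at the median and 0.57 at its 90th percentile over 4808 genes. Neither covers the spread between fish. A change of 2-fold, the threshold used throughout, is 1 on the log2 scale.

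Of the measured probes, 1392 (5.51%) were at least 2-fold higher at H1 and 1759 (6.97%) at least 2-fold lower. By gene, 499 of 9694 (5.15%) were higher and 705 (7.27%) lower, and the median over all measured genes was 0.06. Large falls outnumbered large rises, with 171 probes lower by 8- to 16-fold against 28 higher, and 38 lower by 16-fold or more against 21 higher. The other arrays show on which side the difference lay. The H1 array was the highest of all 8 for 317 of the 499 higher genes (63.5%, against 11.9% of all measured genes), and the control array was the lowest for 135 (27.1%, against 8.93% of all). Among the 705 lower genes H1 was the lowest of the 8 arrays for 147 (20.9%, against 7.49% of all), while the control was the highest for 302 (42.8%, against 6.51% of all). Both kinds of share count the same values that set the fold, so they describe the calls and test nothing. The shares over all measured genes in this paragraph are the ones to set beside every list count below. The lists and their members were chosen with earlier results of these data known. A list share beside the share of all genes is therefore a description and tests nothing.

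**Figure D1:**
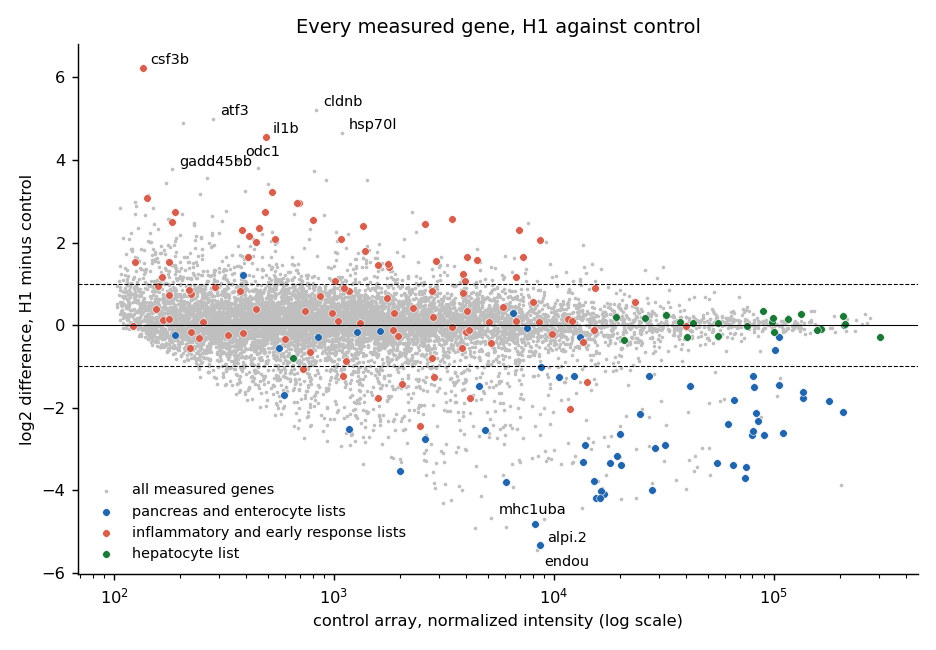
Log2 difference between H1 and control (vertical axis) against the normalised intensity of the control array (horizontal axis, log scale) for all 9694 measured genes, with dashed lines at 2-fold. Hepatocyte genes (green) lie near 0 at high intensity except *hnf4a* at -0.81, inflammatory and early response genes (red) reach 6.23 at the top, and pancreas and enterocyte genes (blue) make up much of the lower right.

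The largest rise among named genes measured on both arrays was in *csf3b*, which encodes a granulocyte colony stimulating factor, the cytokine that drives neutrophil production. Its normalised intensity was 135 in the control, 10106 at H1 and 105, 128 and 223 as the lowest, median and highest of the other 6 arrays. On the other 7 arrays the probe was therefore close to the detection limit, and H1 alone was high, by 74.9-fold over the control (6.23 on the log2 scale, 1 probe). *il1b*, the proinflammatory cytokine interleukin 1 beta, was measured by a probe with 490.4 in the control, 11644 at H1 and 417, 769.6 and 996 as the lowest, median and highest of the other 6 arrays, a 23.7-fold rise (4.57). A second *il1b* probe was not well above background in the control (36.3) and reached 6447 at H1, at least 64-fold higher, and it stayed between 24 and 105 on the other 6 arrays. Such a bound divides the bright array's value by the dim probe's value or by the detection floor of the dim array, its lowest signal that cleared background (101 in the control), whichever is higher. The tumour necrosis factor gene *tnfb* had 484 in the control, 3238 at H1 and 442, 654 and 1263 as the lowest, median and highest of the other 6 arrays, a rise of 2.74. All 3 cytokines were highest at H1, and in the control they lay within the range of the other sites.

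Over the list of inflammatory cytokines and NF-kB genes, 20 of 53 measured members were at least 2-fold higher and 7 at least 2-fold lower, with a list median of 0.40 (2-fold calls over all measured genes: 5.15% higher, 7.27% lower). That is 37.7% of the list on the higher side and 13.2% on the lower. H1 was the highest of the 8 arrays for 20 of the 53 members (11.9% over all measured genes). Among the chemokines, which attract leukocytes, rises were seen in *ccl34a.4* (2.96), *cxcl18b* (2.31), *ccl39.1* (2.08) and *ccl20a.3* (1.49). The neutrophil attractant *cxcl18b* was already bright in the control, with 6915 in the control, 34228 at H1 and 5051, 8236 and 17835 as the lowest, median and highest of the other 6 arrays. Other chemokines were lower, namely *ccl38.6* (-2.43), *cxcl8b.3* (-1.76), *ccl34b.4* (-1.76), *ccl25b* (-1.37) and *cxcl12a* (-1.26). *cxcl8b.3*, a copy of interleukin 8, had 1593 in the control, 470.5 at H1 and 1074, 1344 and 1864 as the lowest, median and highest of the other 6 arrays, so H1 lay below all other arrays. The related gene *cxcl8a*, which the study reports as raised at H1, gave no measured value here, so nothing is said of it.

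On the receiving side, *tlr5b*, the receptor for bacterial flagellin, had 525 in the control, 4910.4 at H1 and 590.3, 820.2 and 1113 as the lowest, median and highest of the other 6 arrays. Its rise of 9.36-fold (3.23) left H1 above the next array by a log2 difference of 2.14. *tnfrsf1b*, a receptor of tumour necrosis factor, rose by 1.53, from 125 to 361, and one other site array (386) was higher still. The interleukin 13 receptor gene *il13ra1* (1.78) and *irak4* (1.32), a kinase that carries Toll-like and interleukin 1 receptor signals, belonged to no list and were picked out after their values were seen. H1 was the highest array for both, by more than 2-fold over the next for *il13ra1* and by a log2 difference of 1.00 for *irak4*.

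Inhibitors that NF-kB and cytokine signals switch on were higher too. *nfkbiaa*, which encodes the inhibitor of NF-kB alpha, had 4452 in the control, 13380.4 at H1 and 2522, 3339 and 4475 as the lowest, median and highest of the other 6 arrays. Both of its probes gave 1.59, and H1 stood 1.58 above the next array on the log2 scale. *tnip1*, which restrains the same pathway, rose by 2.3 ± 0.26 (SD over 3 probes), and *nfkb2*, a subunit of NF-kB, by 1.07. The suppressors of cytokine signalling *socs3b* (2.55 ± 0.56, SD over 3 probes) and *socs3a* (1.66) rose as well, but they were as high or higher at H3, where *socs3a* stood at 30242 against 22799.6 at H1 and 7229.8 in the control. Genes that act on tissue or microbes followed. *mmp9*, a gelatinase of neutrophils, rose from 141 to 1189 (3.07), with 203, 285 and 437 as the lowest, median and highest of the other 6 arrays, and the collagenase gene *mmp13a* rose from 1359 to 7236 (2.41). *noxo1a*, an organizer of a superoxide-making oxidase, rose by 3.56, with 265 in the control, 3129 at H1 and 264, 455 and 589.9 as the lowest, median and highest of the other 6 arrays. *acod1*, which makes the antimicrobial metabolite itaconate, rose by 1.17 and its relative *irg1l* by 2.01. For *irg1l* the control (444) was the lowest of the 8 arrays. It stood at 1782 at H1, with 445, 1110 and 10584 as the lowest, median and highest of the other 6 arrays. The inducible nitric oxide synthase gene *nos2a* and the cyclooxygenase gene *ptgs1* were lower (-1.23 and -1.07). For *nos2a* the control (1097) was the highest array, and H1 (468) lay within the range of the other sites (176 to 888). *ptgs2a*, the inducible cyclooxygenase, was well above background at H1 alone of the 8 arrays, at least 5.84-fold higher there than in the control. *il6* did not clear background in the control and was at least 3.18-fold higher at H1, with one other site array higher still.

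**Figure D2:**
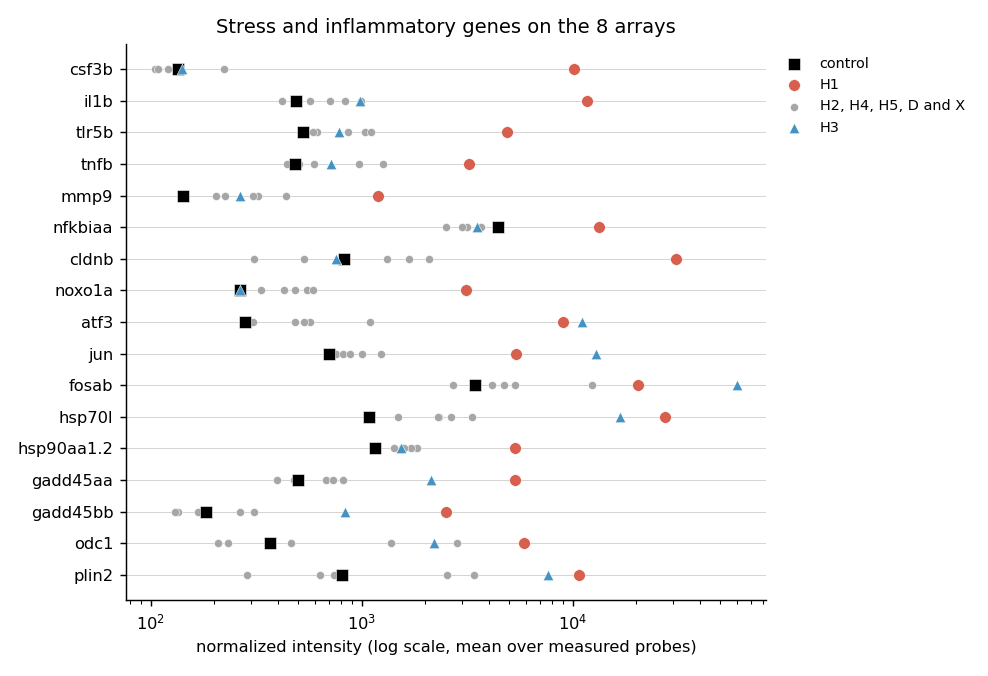
Normalised intensity (horizontal axis, log scale) of 17 stress and inflammatory genes on the control array (black square), the H1 array (red), the H3 array (blue triangle) and the remaining 5 site arrays (grey), each point being the mean over a gene's measured probes on 1 array. H1 stands alone from *csf3b* to *noxo1a* and for *hsp90aa1.2*, whereas H3 is also raised for *atf3*, *jun*, *fosab*, *hsp70l*, both *gadd45* genes and *plin2*.

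Leukocyte markers did not move one way beside these genes. In the leukocyte list 3 of 30 measured members were at least 2-fold higher (10%, against 5.15% of all genes) and 8 at least 2-fold lower (26.7%, against 7.27%). The list median was -0.47, and the summed intensity of the list was 161066 in the control, 134494 at H1 and 84451 to 227832 over the other 6 arrays. The lysozyme gene *lyz* was higher (1.05), the neutrophil peroxidase gene *mpx* stood at -0.70, and the macrophage gene *mpeg1.1* (-1.31) and the pan-leukocyte genes *coro1a* (-1.51) and *lcp1* (-1.01) were lower. The part of leukocyte number in the inflammatory genes was not tested. In bulk liver, fewer cells of a type and less RNA per cell cannot be told apart. Acute phase plasma proteins, which hepatocytes make under cytokine control, mostly stayed within 2-fold. Of 25 measured, 20 lay within 2-fold and the median was 0.05. Serum amyloid A (*saa*) rose by 1.28 over the control but was 1536 at H1 against a median of 2043 on the other 6 arrays, and *hamp*, the iron hormone hepcidin, was at 0.79. Angiotensinogen (*agt*), with 14938 in the control, 41814 at H1 and 15902, 20382 and 36418 as the lowest, median and highest of the other 6 arrays, was the other rise of that list (1.49 ± 0.67, SD over 2 probes), while the lectin gene *mbl2* (-2.69) and *crp6* (-2.31) were lower. Both were also low on the H3, D and X arrays, the arrays on which the summed enterocyte markers were lowest. *mbl2* had 18190.1 in the control, 2809.6 at H1 and 24.1, 9190.4 and 25423 as the lowest, median and highest of the other 6 arrays, with 82.6 at H3, 24.1 at D and 717 at X. The part of enterocytes in these falls was not tested.

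Early response genes, mostly transcription factors that switch on soon after many signals, had more rises than falls as well. In the list 17 of 48 measured members were at least 2-fold higher (35.4%, against 5.15% of all genes) and 2 at least 2-fold lower (4.17%, against 7.27%). The list median was 0.80. The largest fall of the list was in *arl5c* (-2.02), whose place among early response genes was not checked. The AP-1 subunit *jun* had 697 in the control, 5377 at H1 and 756, 944 and 12926 as the lowest, median and highest of the other 6 arrays, a rise of 2.95 ± 0.15 (SD over 3 probes). Its partner *fosab* rose by 2.57 ± 0.38 (SD over 5 probes), from 3446 to 20515, and *junba* by 2.44, from 2601 to 14141. For these the H3 array was higher than H1 (12926 for *jun*, 60338 for *fosab* and 39987 for *junba*), so H1 held the second place among the 8 arrays. Further rises were seen in *pim3* (2.75), *egr3* (2.51), *ccn2a* (2.35), *pim1* (2.1), *ier2a* (2.07), *fosl2* (1.8), *klf6a* (1.65), *egr1* (1.65) and *btg2* (1.46). For the kinase gene *pim3*, the matrix growth factor *ccn2a* and *klf6a*, H1 exceeded every other array, although the 3 probes of *ccn2a* ranged from 0.53 to 3.80. The rest of these were higher at H3 than at H1. *egr3* stood at 1042 at H1, against 2880 at H3, 1161 at H5 and a median of 900 on the other 6 arrays. *klf2a*, a factor of quiescent endothelium, was lower (-1.42) and stood below all other arrays (757 against 1251 for the next). *ankrd1b*, a cardiac and stretch-responsive repeat protein, rose by 4.9 from 206 to 6138 and was higher only at H5 (11012).

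The integrated stress response, in which the kinases of eIF2 raise Atf4 and its amino acid and arrest targets, had more rises than falls. Of its 41 measured members, 12 were at least 2-fold higher (29.3%, against 5.15% of all genes) and 1 at least 2-fold lower (2.44%, against 7.27%). The list median was 0.46. *atf3* had 281 in the control, 8965 at H1 and 307, 549.5 and 11118 as the lowest, median and highest of the other 6 arrays, a rise of 31.9-fold (4.99), and H3 was the only array above H1. Among its other members rises were seen in the amino acid transporter chain *slc3a2b* (2.7), the stress sensor *sesn2* (2.18), asparagine synthetase *asns* (1.92), the tRNA synthetases *wars1* (1.66) and *tars1* (1.32), the phosphatase subunit *ppp1r15a* (1.53), the pseudokinase *trib3* (1.39) and *atf4b* itself (1.2). H1 was the highest array for 17 of the 41 members (11.9% over all measured genes), among them *asns*, whose 2 probes gave 0.93 and 2.92, *sesn2* and *slc3a2b* (203 in the control, 1321 at H1, at most 585 elsewhere). The fellow chain *slc3a2a* was lower (-2.16). *fgf21*, a hepatic hormone of starvation and Atf4 target, did not clear background in the control and was at least 5.12-fold higher at H1. Targets of the unfolded protein response of the endoplasmic reticulum did not share the shift as a list. There 1 of 69 measured members was at least 2-fold higher and 2 at least 2-fold lower, and the median was -0.09. The higher one was *dnajb9b* (1.49, 2 probes), with 1181 in the control, 3324 at H1 and at most 1605 on the other 6 arrays. The luminal Hsp70 gene *hspa5* was at -0.54 ± 0.07 (SD over 6 probes) and the luminal Hsp90 gene *hsp90b1* at -0.88 (2 probes). For *hspa5*, H1 (4002) lay below the control (5824) but above the median of the other 6 arrays (3005).

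**Figure D3:**
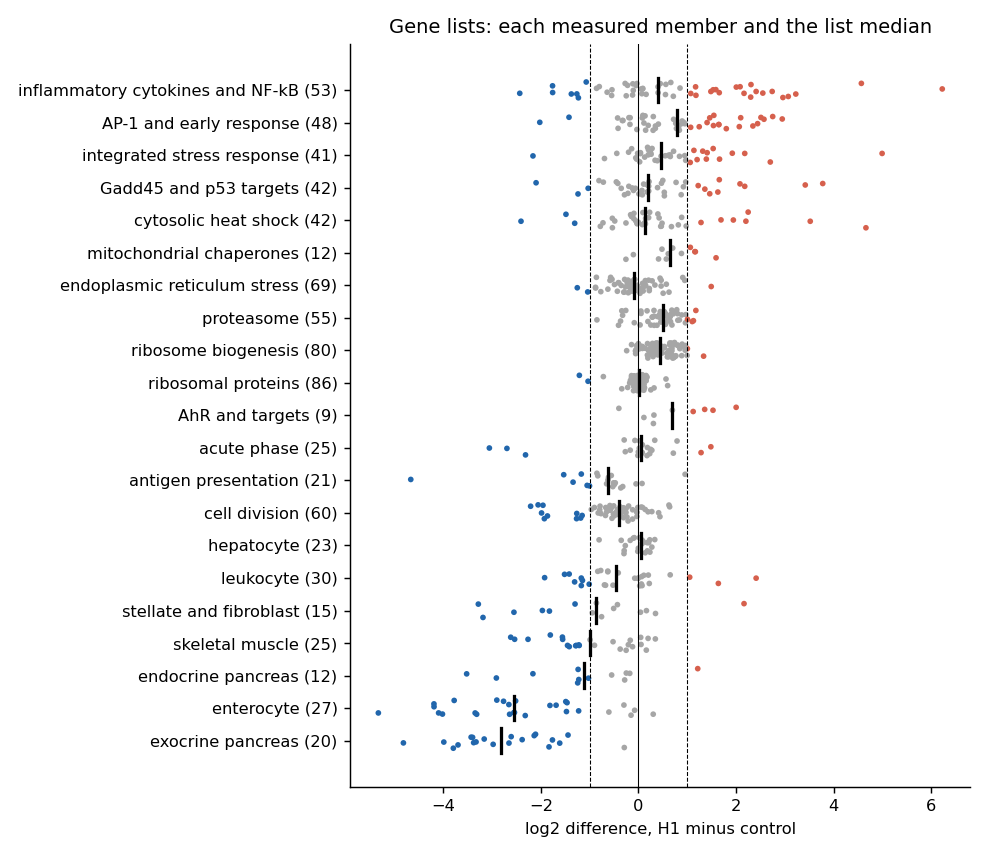
Log2 difference between H1 and control (horizontal axis) for every measured member of 21 gene lists, with the number of members in parentheses, the list median as a black bar and dashed lines at 2-fold. Members at least 2-fold higher are red and at least 2-fold lower are blue. Inflammatory and early response genes hold 20 and 17 red points, and the exocrine pancreas and enterocyte lists 19 and 22 blue points and no red one.

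Cytosolic heat shock genes differed between inducible and constitutive members. *hsp70l*, an inducible Hsp70, had 1088 in the control, 27558 at H1 and 1484, 2487 and 16772 as the lowest, median and highest of the other 6 arrays, and its 2 probes gave 4.74 and 4.59 (mean 4.66, 25.3-fold). *hsp70.3* gave 3.52, but its 3 probes ranged from 0.81 to 5.36 (SD 2.4), and near-identical Hsp70 copies may share these probes, so its size is uncertain. *hsp90aa1.2*, an inducible cytosolic Hsp90, had 1161 in the control, 5344 at H1 and 1419.7, 1569 and 1823 as the lowest, median and highest of the other 6 arrays. Its mean rise was 2.2 ± 1.1 (SD over 4 probes), with single probes from 0.66 to 3.03. The other measured Hsp90 genes were at 0.14 for *hsp90ab1* (7 probes), the constitutive form, and at -1.31 for *hsp90aa1.1* (1 probe), the muscle form. A second probe of *hsp90aa1.1* went the other way, being dim in the control (92.2) and 244 at H1, at least 2.42-fold higher, so no direction is given for that gene. Constitutive *hspa8* stood at 0.08 ± 0.08 (SD over 11 probes). Further Hsp70 family genes stayed within 2-fold, namely *hspa13* (0.91), *hspa4b* (0.21), *hspa12b* (-0.57) and *hspa14* (single probes at -0.06, 0.22 and 0.53). Some partners of these chaperones were higher, namely *hspa4a* (2.25), *hspbp1* (1.95), *dnajb1b* (1.69) and *dnajb6b* (1.28). In all, 7 of 42 measured members were at least 2-fold higher (16.7%, against 5.15% of all genes) and 3 at least 2-fold lower (7.14%, close to the 7.27% of all). By any amount 25 members were higher and 17 lower, the lowest at -2.41. The list median was 0.13. H3 shared the rise of *hsp70l* (16772), *hsp70.3* (10163) and *dnajb1b* (3429), and *hsp90aa1.2* was at 1535 there. The mitochondrial chaperones were higher more evenly. Of 12 measured, 4 rose, *hspd1* (1.59), *hspa9* (1.17), *hspe1* (1.16) and *clpxa* (1.06), none fell past 2-fold, and the median was 0.66. H1 was the highest array for 8 of them (11.9% over all measured genes). For *hspd1*, which encodes Hsp60, the values were 1260.1 in the control, 3797 at H1 and 847, 1380.2 and 2872 as the lowest, median and highest of the other 6 arrays.

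The Gadd45 proteins halt the cell cycle and aid repair after DNA damage and other stress. The first of the 2 probes of *gadd45aa* read 554 in the control and 6254 at H1, and as a gene it had 501 in the control, 5362 at H1 and 395, 702 and 2132 as the lowest, median and highest of the other 6 arrays, a log2 difference of 3.42. *gadd45bb* had 183 in the control, 2515 at H1 and 129.8, 216 and 833 as the lowest, median and highest of the other 6 arrays, a 13.7-fold difference. For both, H1 was the highest array and H3 the second. *gadd45ba* (0.88) and *gadd45ga* (0.97), each with 2 probes, fell just short of 2-fold, and both were higher at H3 than at H1. *gadd45ab* was lower (-2.1 in both probes), with 2402 in the control, 561 at H1 and 307, 835 and 1345 as the lowest, median and highest of the other 6 arrays, so that the control was the highest array of the 8 and H1 lay within the range of the other sites. *gadd45gb.1* was not well above background on either array. In the wider list of Gadd45 and p53 targets 9 of 42 measured members were at least 2-fold higher (21.4%, against 5.15% of all genes). Another 3 were at least 2-fold lower (7.14%, close to the 7.27% of all), and the median was 0.20. Higher members included the survival genes *mcl1b* (1.63) and *bcl2l1* (1.36, with 2 probes at 0.64 and 2.08), the caspase gene *casp9* (1.66) and *tp53inp1* (1.23). The death gene *bbc3* was lower than in the control (-1.24 ± 0.03, SD over 3 probes). It had 557 in the control, 236 at H1 and 95.3, 116 and 197 as the lowest, median and highest of the other 6 arrays. The control was thus its highest array, and H1 lay above every other site.

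Broad small differences were found in the machinery of protein turnover and synthesis. The proteasome degrades ubiquitin-tagged proteins. Its list held the constitutive subunits, regulators and assembly factors and *psmb10*, while the other immune core subunits stood in the antigen presentation list. Of the 55 measured genes of the proteasome list, 48 were higher at H1 by any amount (against 55.3% of all genes). Past 2-fold were 4 (7.27%, against 5.15% of all), none was 2-fold lower, and the median was 0.51. The H5 array was about as high as H1. The mean log2 intensity of the list was 11.85 in the control, 12.28 at H1 and 12.31 at H5. Its summed intensity was 367858, 479686 and 471307 on these arrays. Those past 2-fold were the lid and base subunits *psmd4a* (1.18), *psmd7* (1.1) and *psmd8* (1.01) and the core subunit *psmb7*. The 5 probes of *psmb7* gave 1.13 ± 0.06 (SD), and the gene had 4881 in the control, 10667 at H1 and 5582, 6438 and 10604 as the lowest, median and highest of the other 6 arrays. Immune forms of the core had negative differences, with *psmb9a* at -1.0, *psmb13a* at -1.34, *psmb10* at -0.85 and *psmb12* at -0.65, and the activator genes *psme1* and *psme2* at -0.52 and -0.63. Ribosome biogenesis factors, which build ribosomal subunits in the nucleolus, were higher by any amount in 74 of 80, with a median of 0.45. Only *pwp2h* (1.34) and *ddx49* (1.0) passed 2-fold, and none was 2-fold lower. H1 was the highest array for 26 and the control the lowest for 18 (11.9% and 8.93% over all measured genes). Ribosomal proteins themselves had a median of 0.02 over 86 genes. The 2 called lower were *rps6ka3a*, a kinase caught by its name, and *rpl31*, whose 3 probes disagreed in sign. The chaperonin that folds actin and tubulin had a median of -0.09 over 15 genes with none past 2-fold, and the respiratory chain 0.14 over 81.

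**Figure D4:**
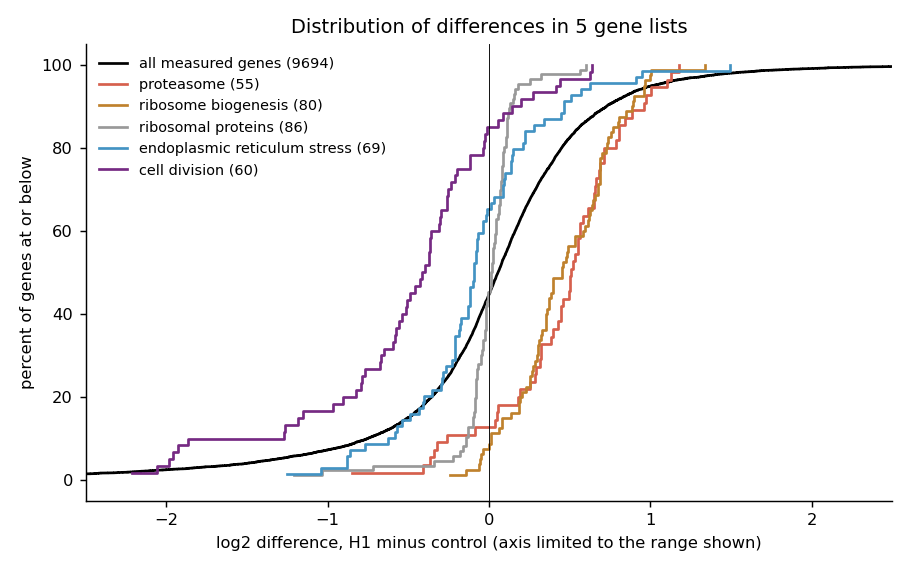
Cumulative share of genes (vertical axis, percent) at or below each log2 difference between H1 and control (horizontal axis, limited to 2.5 either side of 0), for all measured genes (black) and 5 lists. The proteasome and ribosome biogenesis curves lie to the right of all genes with medians of 0.51 and 0.45, cell division lies to the left with -0.41, and ribosomal proteins and endoplasmic reticulum stress genes centre near 0.

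Cell division genes, which mark dividing cells and are scarce in adult liver, had falls and no rise past 2-fold. In this list 0 of 60 measured members were at least 2-fold higher and 10 at least 2-fold lower (16.7%, against 7.27% of all genes), with a median of -0.41. H1 was the lowest of the 8 arrays for 20 of the 60, against 7.49% of all measured genes. The mitotic kinase gene *cdk1* had 812 in the control, 209 at H1 and 369, 573 and 2093 as the lowest, median and highest of the other 6 arrays, so H1 was below every other array. Falls were also seen in the replication helicase genes *mcm5* (-1.99) and *mcm6* (-2.21), the mitotic genes *ube2c* (-2.06) and *mad2l1* (-1.93), the sliding clamp gene *pcna* (-1.26) and the proliferation marker *mki67* (-1.27). One further *mcm5* probe, dim in the control, was at least 1.49-fold higher at H1. *mad2l1* read 145 at H1, close to the detection limit of that array, where the detection floor was 103. *cdc6*, a licensing factor, was dim at H1 and at least 1.36-fold lower in 1 probe. Red cell markers, which would carry immature blood cells, had a median of -0.10, and leukocyte and intestinal markers, whose cells can divide, are given with their values elsewhere. Their part in the cell division genes was not tested.

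Genes of metabolism and the cell surface made up several of the largest rises. *odc1*, ornithine decarboxylase and the first step of polyamine synthesis, had 366 in the control, 5902 at H1 and 209, 921 and 2847 as the lowest, median and highest of the other 6 arrays, a rise of 4.01 ± 0.74 (SD over 3 probes). The remaining steps stayed within 2-fold, with spermidine synthase *srm* at -0.22, spermine synthase *sms* at -0.29 and *amd1* at -0.52, while *sat1a.2*, which acetylates polyamines for export, rose by 1.13. *cldnb*, a tight junction claudin of epithelia, had 828 in the control, 30878 at H1 and 309, 1033 and 2078 as the lowest, median and highest of the other 6 arrays. Its 37.3-fold rise came from 2 probes at 5.45 and 4.99, and H1 exceeded the next array by 3.89 on the log2 scale. Claudins of the intestine moved the other way, with *cldn15la* at -2.93 and *cldn15a* at -2.66. *plin2*, which coats lipid droplets, had 809.6 in the control, 10689 at H1 and 285, 1644 and 7655 as the lowest, median and highest of the other 6 arrays. Its 2 probes gave 2.76 and 4.68. *snap23.2*, a membrane fusion protein, rose 11.4-fold, with 1414 in the control, 16094 at H1 and 348, 850.5 and 1698 as the lowest, median and highest of the other 6 arrays, and both probes of the lactate transporter gene *slc16a3b* were higher. They differed widely in size (0.85 and 5.51), so the size for this gene is uncertain. *pfkfb3*, which makes the activator of glycolysis, was 1419 in the control, 5346 at H1 and 94.9, 584 and 1363 as the lowest, median and highest of the other 6 arrays (1.91).

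Both leptin genes belonged to the transcripts seen at H1 alone or nearly so. *lepa*, which encodes a leptin made by fish liver, was at 22.5 in the control, 5917 at H1 and between 24 and 29.7 on the other 6 arrays. H1 was the only array with the probe well above background, and the difference was at least 58.7-fold, the largest bound of any gene measured only this way. *lepb* was at 37.7 in the control and 1127 at H1, at least 11.2-fold higher, and at most 131 elsewhere. *ch25h*, a cholesterol hydroxylase induced in inflammation, was at least 16.5-, 20.9- and 19.4-fold higher in 3 probes. Other genes dim in the control with large bounds were *ubald1b* (at least 18.7-fold), *rgra* (16.3), *mpzl1l* (10.3), *prkchb* (10), *pglyrp5*, a peptidoglycan recognition protein (9.21), the clock repressor *bhlhe41* (at least 9.07, the lower of 2 probes) and *rln3a* (9.04). H1 was the highest of the 8 arrays for each of them. These genes were picked for a bright signal at H1, so this rank describes the pick and tests nothing.

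Hormone and xenobiotic pathways held members that rose and members that fell. In the list of growth hormone, insulin-like growth factor and insulin signalling, 6 of 39 measured members were at least 2-fold higher (15.4%, against 5.15% of all genes). A single member was at least 2-fold lower (2.56%, against 7.27%), and the median was 0.20. H1 was the highest of the 8 arrays for 1 of the 39 members (11.9% over all measured genes). The transcription factor gene *foxo1a*, which insulin restrains, rose by 2.89 from a control value near the detection limit (126 to 934, 1 probe) and was higher at H3 (1425). Glucose 6-phosphatase *g6pc1a.1* rose by 1.08, from 15392 to 32593, and was higher still at H3 (35181) and H5 (32633). Gluconeogenic *pck1* was at -0.10, and *irs2a*, an insulin receptor substrate, at -0.49. Among aryl hydrocarbon receptor genes, 4 of 9 measured were higher (44.4%, against 5.15% of all genes), *slc16a9a* (2.0), *tiparp* (1.53), *nqo1* (1.36) and *arnt* (1.12). The list median was 0.70 against the control and 0.08 against the other 6 arrays. *tiparp* was higher at H3 (999) and D (720) than at H1 (679). *arnt* rose from a control value near the detection limit (122 to 265) and was higher at H3 (284). One further *tiparp* probe, dim at H1, was at least 4.06-fold lower there. *cyp1a*, the classical target of that receptor, was at -0.40 ± 0.36 (SD over 3 probes), with 7165 in the control, 5428 at H1 and 4943, 7373 and 11309 as the lowest, median and highest of the other 6 arrays, and *cyp1c1* and *cyp1c2* were dim at H1 and lower by at least 1.86-fold (the lower of 2 probes) and 2.82-fold. The carrier gene *slc16a9a* was bright in the control (9187) and reached 36825 at H1, above every other array. No member of the CYP2, CYP3 and CYP4 families rose past 2-fold, and 7 of 32 fell (21.9%, against 7.27% of all genes), *cyp2aa4* (-2.08), *cyp2aa8* (-1.89), *cyp2k16* (-1.76), *cyp2aa9* (-1.4), *cyp3c4* (-1.4), *cyp2x10.2* (-1.25) and *cyp2k19* (-1.11). Of these *cyp2k19* (5 probes), *cyp2x10.2* and *cyp3c4* lay below all other arrays. In bile acid synthesis the rate-limiting *cyp7a1* fell by 2.1 on the log2 scale, with 4979 in the control, 1165 at H1 and 1081, 3159 and 6606 as the lowest, median and highest of the other 6 arrays, and its repressor *nr0b2a* was at -3.02, with 10004 in the control, 1236 at H1 and 745, 3782 and 14067 as the lowest, median and highest of the other 6 arrays. *nr0b2a* was low at H3 (745), D (1557) and X (995) as well, as were the enterocyte markers, whose part in it was not tested. Lipin *lpin1a*, which makes diacylglycerol, was at -2.53 ± 0.57 (SD over 3 probes). *cyp19a1b* did not clear background in the control and exceeded it at H1 by at least 1.56- and 1.11-fold in 2 probes. *cyp51* was at -0.51 and 0.85 in the 2 measured probes. Further *cyp51* probes, dim at H1, read 152 in the control and 77.2 at H1, and 152 and 56.3. The measured probes disagreed in sign, so no direction is given for *cyp51*. The steroid synthesis genes *cyp11c1* (-0.15) and *cyp17a1* (-0.07) stayed within 2-fold.

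Many of the largest falls were in genes of the pancreas and intestine. *endou*, an endoribonuclease, led with 8373 in the control, 192 at H1 and 105, 1007 and 4019 as the lowest, median and highest of the other 6 arrays (-5.45, 43.6-fold lower). Intestinal alkaline phosphatase *alpi.2* had 8648 in the control, 215 at H1 and 25, 443 and 5179 as the lowest, median and highest of the other 6 arrays (-5.33), and the pancreatic astacin protease gene *c6ast4* had 8229 in the control, 292 at H1 and 206, 846 and 4233 as the lowest, median and highest of the other 6 arrays (-4.82). In each the control was the highest array and other sites reached as low as H1 or lower. The further genes among the 15 largest falls were *enpep* (-4.91), *mep1a.2* (-4.9), *nmrk2* (-4.7), *mhc1uba* (-4.67), *slc34a2a* (-4.42), *pglyrp6* (-4.31), *slc13a2* (-4.2), *ctrb.2* (-4.2), *slc5a1* (-4.19), *mep1ba* (-4.19), *slc15a1b* (-4.09) and *mep1a.1* (-4.02). They include brush border peptidases (*enpep*, *mep1a.1*, *mep1a.2* and *mep1ba*), the sodium carriers of phosphate, dicarboxylates and glucose (*slc34a2a*, *slc13a2* and *slc5a1*), the oligopeptide carrier *slc15a1b* and a chymotrypsinogen (*ctrb.2*).

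In the exocrine pancreas list 0 of 20 measured members were at least 2-fold higher and 19 at least 2-fold lower (95%, against 7.27% of all genes). The list median was -2.81 against the control and -1.07 against the other 6 arrays. The remaining member, the amylase gene *amy2al1*, was at -0.29. Carboxypeptidase *cpa5* had 75106 in the control, 6976 at H1 and 1777, 17090.1 and 69277 as the lowest, median and highest of the other 6 arrays, and trypsin *prss1* had 179194 in the control, 50327 at H1 and 24418, 86803 and 151995 as the lowest, median and highest of the other 6 arrays, so pancreatic enzymes were still far above background at H1. The summed intensity of the list was 1500000.0 in the control, 329978 at H1 and 160021 to 1264770.0 over the other 6 arrays, with H3 lowest. In the enterocyte list 0 of 27 measured members were at least 2-fold higher and 22 at least 2-fold lower (81.5%, against 7.27% of all genes). The median was -2.54, and the sums were 873824, 320946 and 165704 to 824375. H3, D and X were below H1 in this list, and against the median of the other 6 arrays in place of the control the list median was 0.13, so the list was lower against the control but not against the other sites. Of the endocrine pancreas list 7 of 12 measured members fell past 2-fold (58.3%, against 7.27% of all genes) and 1 rose. Its median was -1.12 against the control and -0.14 against the other 6 arrays. Among the falls were insulin (*ins*), the somatostatins *sst1.1* (-2.91) and *sst2* (-2.16) and glucagon *gcga* (-1.02). *ins* had 27184 in the control, 11653 at H1 and 1751, 11935 and 50681 as the lowest, median and highest of the other 6 arrays, a difference of -1.22 over 2 probes, and H1 lay inside the range of the other sites. The second insulin gene *insb* was at -0.25. The 59 measured members of these 3 lists held 48 of the 705 genes that fell past 2-fold and 1 of the 499 that rose. Over all measured genes 7.27% fell and 5.15% rose past 2-fold. The markers of these lists therefore moved with the falls, and their part in the falls of other genes was not tested.

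**Figure D5:**
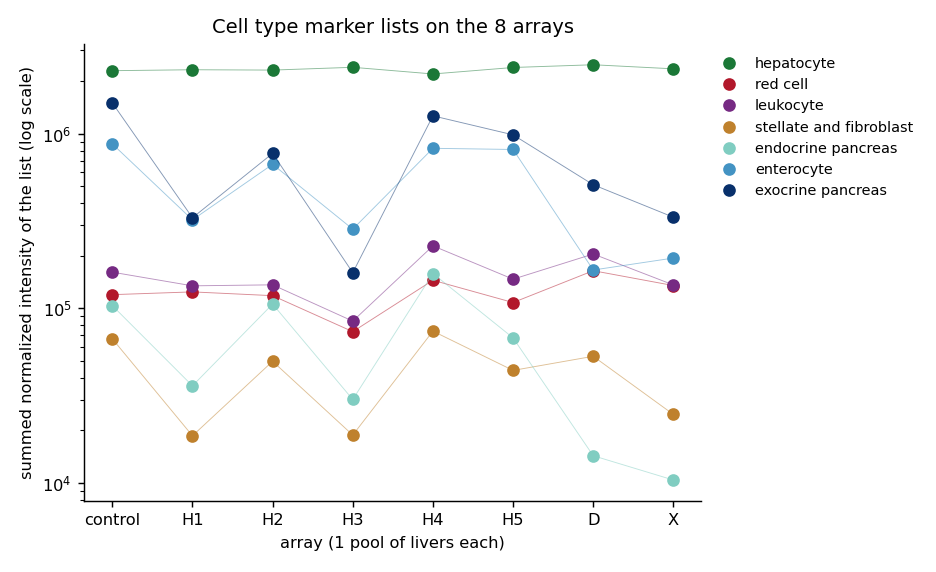
Summed normalised intensity (vertical axis, log scale) of 7 cell type marker lists on each of the 8 arrays (horizontal axis), each point being the sum over the list's genes on 1 array. The hepatocyte sum stays between 2196560.0 and 2480470.0, while the exocrine pancreas sum goes from 1500000.0 in the control to 329978 at H1 and 160021 at H3.

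Markers of hepatocytes, the main cells of the liver, did not differ between the arrays by 2-fold in any of 23 measured genes. Their median was 0.05. The liver fatty acid binding protein *fabp10a* had 164137 in the control, 154846 at H1 and 133465, 157463 and 208169 as the lowest, median and highest of the other 6 arrays, and transferrin *tfa* had 98309 in the control, 103848 at H1 and 96463, 99639.5 and 117487 as the lowest, median and highest of the other 6 arrays, so the defining liver genes were bright on all 8 arrays. The largest hepatocyte difference was in the transcription factor gene *hnf4a* (-0.81), with 655 in the control, 374 at H1 and 404, 733 and 1104 as the lowest, median and highest of the other 6 arrays. Markers of stellate cells, fibroblasts and smooth muscle were at least 2-fold lower in 6 of 15 (40%, against 7.27% of all genes). Another 1 was at least 2-fold higher (6.67%, against 5.15%), at 2.16, and the list median was -0.86. Smooth muscle actin *acta2* had 20024 in the control, 2202 at H1 and 1689, 11554 and 20405 as the lowest, median and highest of the other 6 arrays, its companion *tagln* was at -3.28, and the collagen genes *col1a1b* (-1.97) and *col1a2* (-2.55) lay below all other arrays. Skeletal muscle genes were lower in 12 of 25 (48%, against 7.27% of all genes), with *mylpfa* at -2.62 and *ckma* at -2.54. The 2 probes of *mylpfa* gave -3.78 and -1.45. The mean values fell from 1193 to 194 and from 1507 to 259.7. Markers of testis somatic cells and germ cells, which could enter male viscera, had no member past 2-fold among 14 and 12 measured.

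Genes of antigen presentation and interferon held falls and no rise past 2-fold. In the antigen presentation list 0 of 21 measured members were at least 2-fold higher and 6 at least 2-fold lower (28.6%, against 7.27% of all genes), with a median of -0.61. *mhc1uba*, a classical MHC class I gene, had 5194 in the control, 205 at H1 and 258, 1832 and 6363 as the lowest, median and highest of the other 6 arrays, and both probes were lower (-5.03 and -4.30). H1 was the lowest array and the range over the other sites was wide. The peptide transporter *tap2a* (-1.05), the trimming peptidase *erap2* (-1.53) and the invariant chain *cd74b* (-1.17) were lower too. Of 24 measured interferon response genes 4 fell past 2-fold (16.7%, against 7.27% of all genes). *stat1b*, a signal transducer of interferon, was at -2.29, with 13938 in the control, 2842 at H1 and 643, 6515 and 11325 as the lowest, median and highest of the other 6 arrays, and it was lowest at H3 (643) and D (1472). Enterocyte markers were also low on H3 and D, and 8 of 30 leukocyte markers fell at H1. Their part in these falls was not tested. Genes for which H1 lay below every other array by at least 2-fold numbered 11. Apart from 2 with a clone name, they were *selenoe* (-2.83), *spam1* (-2.54), *gpr22a* (-2.5), *vdac1* (-2.09), *arl5c* (-2.02), *mad2l1* (-1.93), *cxcl8b.3* (-1.76), *mxra8a* (-1.61) and *macroh2a2* (-1.49), named after their values were seen. The selenoprotein gene *selenoe* had 15044 in the control, 2109.8 at H1 and 4575, 5914 and 16299 as the lowest, median and highest of the other 6 arrays, and *vdac1*, a mitochondrial outer membrane channel, had 1394 in the control, 328 at H1 and 1104, 1355 and 2256 as the lowest, median and highest of the other 6 arrays.

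Genes for which H1 lay above every other array by at least 2-fold numbered 83. Besides those described, they included the insulin-like peptide *insl5b* (2.99, 124 in the control and 983 at H1), the calcium hormone stanniocalcin *stc1* (2.7), the matrix protein *egfl6* (3.26), the urokinase gene *plaua* (2.23), the leukocyte genes *cd83* (2.01) and *cd22* (1.85), the growth factor *hbegfb* (1.57), the signalling regulator *rgs16* (2.65), and the arsenite- and heat-inducible *zfand2a* (1.4 ± 0.59, SD over 3 probes). These too were singled out after their values were seen.

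Genes seen in the control and dim at H1 gave bounds in the other direction. The neutral amino acid carriers *slc6a19a.1* (lower by a log2 difference of at least 5.27) and *slc6a19b* (at least 13.4-fold lower) of the brush border, the glucuronosyltransferase *ugt5a2* (22.4), the gut peptide *vipb* (21.8), *tmem37* (16.1), the carnitine carrier *slc22a4* (14.9), the lens crystallin *crygm3* (14), *lhfpl2a* (at least 3.48 on the log2 scale), the matrix protein *dpt* (10.6) and *nansb* (10.1) led them. For *slc6a19a.1* the values were 3987 in the control and 22.4 at H1, with other sites from 21.3 to 5439.

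Several lists of liver metabolism stayed near the median of all genes. Cholesterol synthesis had a median of -0.11 with 1 of 25 lower and none higher. Fatty acid oxidation and PPAR targets had 0.13 over 41, one-carbon metabolism 0.02 over 26 and the breakdown of aromatic amino acids -0.01 over 19, the last 2 with no member past 2-fold. Coagulation factors had 0.24 over 23, complement 0.11 over 29 and antioxidant enzymes 0.13 over 24. The coagulation shift was small but broad, with 21 of the 23 higher by any amount (against 55.3% of all genes) and 2 past 2-fold. Among acyl-CoA synthetases 2 of 13 were higher and 4 lower, and the lowest, *acsl5* (-3.31), is also a member of the enterocyte list. In the estrogen response list none rose past 2-fold, 2 of 14 fell (14.3%, against 7.27% of all genes), and the median was -0.36.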

How the data were processed

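Livers were profiled on Agilent one-colour 4x44K zebrafish arrays, 1 array per group, grouped by the samples' labels. The deposited scanner files hold intensity values per spot, which the authors extracted with Feature Extraction 10.7 (background-subtracted processed signal). The methods state quantile normalization. A deposited log2 table was used as an alternative only, and it gave the same counts as shifting each array by its 75th percentile. A second array per group was not analysed here.

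Processed signals were log2 transformed, averaged over repeated spots and quantile normalized over the 8 arrays (Python 3.11.15, numpy 2.4.6, pandas 2.3.3). The values were then averaged over a gene's measured probes. Control spots were left out, and so were probes marked as non-uniform or population outliers in at least 50% of their spots on either array. This left out 287 probes. Another 14363 probes were dim on both arrays, 1693 in the control only and 2014 at H1 only. Of 27655 probes with a RefSeq accession, 26094 were given a symbol through the RefSeq gene table. All other probes entered the probe counts without a gene name.

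With 1 array a side no test was run. A 2-fold difference counted as a call. Errors are those of the scanner software, of repeated spots (CV 5.60% in the control and 6.30% at H1) and of different probes of a gene, and the number of arrays limits the precision. The calculation was tested on simulated data. The genes named were drawn from the 15 largest rises and the 15 largest falls with all probes moving one way. Each of 62 lists could add up to 8 members by size of change and up to 3 by control signal. Further sources were the 10 largest bounds each way, the genes the study names for H1, and the measured gadd45, hsp70 and hsp90 family members. Others were named after their values were seen. The lists and their members were chosen with earlier results of these data known. Alternatives were the scaling, normexp background correction (R 4.3.3, limma 3.58.1, offset 50), the filters, the fold threshold, the probe summary and the reference arrays.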

Additional observations from a re-analysis of the deposited data

How the results depend on the processing

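No paired analysis was possible because each group had 1 array here. With 1 pool a side, no value separates the water from the tank, fish or array, and the 1693 probes dim in the control and 2014 dim at H1 gave bounds only. Probes higher and lower numbered 1392 and 1759, and 44.2% of the called probes were higher. With normexp 813 were higher. With the filter relaxed to 1 array the counts were 2445 and 3093, and with no filter 3409 and 3914. At 1.5-fold they were 3931 and 3217 (55.0% higher), at 3-fold 419 and 866 (32.6%), and by gene 499 and 705. The share of higher calls moved most with the reference. Against the median of the other 6 site arrays 591 probes were lower and 63.8% of calls higher, and against the mean of H2 and D 795 and 62.5%.

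Of the list medians, that of the exocrine pancreas was -2.65 with either relaxed filter and -1.07 with either other reference. H2 and D were the middle arrays of the 6 by summed intensity of that list, so these references are not separate checks. The enterocyte median was -2.20 with normexp, -2.24 with the probe brightest in the control, 0.13 against the other 6 arrays and 0.0159 against H2 and D. AP-1 and early response had 0.58 with normexp and 0.56 against the other 6, and ribosome biogenesis 0.19 against the other 6. Inflammatory genes had 0.66 and cell division -0.58 with the filter relaxed to 1 array, and 0.12 and -0.57 against H2 and D, where the proteasome had 0.27. Other medians that changed sign were those of endocrine pancreas (0.0442), coagulation (-0.0362) and interferon response (0.0319) against H2 and D, interferon response (0.0487) and tight junctions (-0.00539) against the other 6, and amino acid transporters (0.00160) with no filter. The 75th percentile scaling and the deposited table moved none of the 62 medians beyond the spread.

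Of 170 named genes past 2-fold, 166 stayed past it the same way with the 75th percentile and with the deposited table, and 150 with normexp. Against the other 6 arrays 112 of 168 did, and 12 changed sign, namely *acsl5* (0.88), *alpi.2* (0.37), *bbc3* (0.62), *cyp2aa4* (0.0192), *hsp90aa1.1* (0.16), *ins* (0.0804), *mep1a.1* (0.0975), *mep1ba* (0.79), *nos2a* (0.34), *saa* (-0.41), *slc13a2* (1.17) and *slc15a1b* (0.39). The probes used against the other 6 arrays were chosen by their signal at H1 and on those arrays, without regard to the control. With probes measured at H1 and in the control, and averaged per gene before the median was taken, *hsp90aa1.1* was at -0.79 and *cyp2aa4* at -0.03. The sign for these genes therefore depended on the probes or their summary. The cause of the other changes was not tested.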
